A study of Mus musculus with 10 samples.

Results

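The genes described here are 31 genes of mitochondrial fatty acid oxidation and of the proteins that carry fatty acids to it, out of 49568 genes in the table. They were listed by gene symbol for their place in the pathway, at a time when earlier results of these data were known, and all 31 were found and had a mean normalized count of at least 10 in the reactive cholangiocytes that were compared. Reactive cholangiocytes are the bile duct lining cells that multiply around the portal tract after injury, and the comparison asks how their RNA differed when *Smad4*, a transcription factor of TGFβ and BMP signaling, was deleted. RNA was sequenced from 5 *Ctl* mice, labelled Smad4wt/wt, and 5 *Smad4*del mice, labelled Smad4fl/fl. All 10 had been fed 0.1% DDC, a compound that injures bile ducts by forming porphyrin plugs, for 2 weeks. By the study's methods *Smad4*del mice carried *Alb-Cre*, a Cre recombinase driven by the albumin promoter that acts in hepatocytes and in cholangiocytes formed from the same embryonic precursors, whereas control mice carried no *Alb-Cre*, so that deletion of *Smad4* and presence of Cre cannot be told apart. Mice were of mixed genetic background, their ages are not in the labels, and the labels tag each mouse number as a cell line with a culture protocol although the methods describe cells sorted from digested livers as EPCAM+/CD45-/Ter119-. Each mouse gave 1 sample. Values are listed for *Ctl* mice in the order A5215, A5219, A5221, A5626 and A5628 and for *Smad4*del mice in the order A5216, A5217, A5218, A5447 and A5624.

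Fatty acids enter the cell in part through membrane proteins such as CD36, are held in the cytosol by fatty acid binding proteins, and are joined to coenzyme A by acyl-CoA synthetases. Long-chain acyl groups then cross into mitochondria on carnitine, and repeated rounds of dehydrogenation, hydration, a further dehydrogenation and thiolysis shorten them by acetyl-CoA units, while electrons pass through the electron transfer flavoprotein to the respiratory chain. In the liver hepatocytes are the best known site of this pathway, which PPARα and its coactivator PGC-1α switch on in fasting.

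*Smad4* itself fell from 3389 ± 347 normalized counts (SD, n = 5) in *Ctl* to 877 ± 144 in *Smad4*del mice (limma, log2 fold change -1.96, SE 0.123, adjusted p = 1.09e-05), and the cohorts did not overlap. Per mouse, 16249719 to 21277339 reads (*Ctl*) and 16734672 to 19710560 reads (*Smad4*del) fell on genes. Defining cholangiocyte markers were high in all mice, with *Krt19* at 17234 or more and *Epcam* at 16857 or more normalized counts, and of 11 such markers 9 had a fold change above 0 and 2 were called higher in *Smad4*del (limma, *Krt19* 0.53, adjusted p = 0.0270, and *Muc1* 0.66, adjusted p = 0.0208, both without overlap). Of all genes tested, 49.4% had a fold change above 0 and limma called 2.43% higher. What part the cholangiocyte markers have in the results was not tested. Markers of other cells were also present: summed over 14 endothelial markers, the *Ctl* cohort had 23971 to 70560 and the *Smad4*del cohort 8247 to 17625 normalized counts; the sum of 14 macrophage markers was 37787 to 318278 against 26050 to 110394, that of 20 hepatocyte markers was 36696 to 66750 against 47754 to 96276, and that of 10 stellate cell and fibroblast markers was 17888 to 47067 against 8581 to 15463. None of these markers was at 0 in any mouse except the macrophage genes *Marco* and *Timd4* in A5624. The lowest macrophage sums were mostly *Cd14*, which held 20150 of the 26050 counts in A5624 and 24625 of the 37787 in A5628. Its log2 fold change was -0.30 against a median of -2.48 over the 14 macrophage markers. Of the 14 endothelial markers 12 were called lower in *Smad4*del by limma, where 4.69% of all genes were called lower. Of the 14 macrophage markers 0 were called by limma, DESeq2 or edgeR, although all 14 had a fold change below 0. All 14 also had an unadjusted p of limma under 0.05, as had 4076 of all 14870 genes tested. Of the 20 hepatocyte markers 14 had a fold change above 0, with a median of 0.55 on the log2 scale. Limma called 1 of them higher and DESeq2 4, where 2.43% and 6.01% of all genes were called higher. All 10 stellate cell and fibroblast markers had a fold change below 0, with a median of -0.88. Limma called 1 of them lower and DESeq2 5, where 4.69% and 8.68% of all genes were called lower.

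Of the 31 genes, 5 were called higher in *Smad4*del (*Dbi*, *Decr1*, *Hadh*, *Acadvl* and *Eci1*) and 1 was called lower (*Pdk4*), while 25 were not called. A gene was called where the adjusted p of limma on log2(normalized count + 1) was under 0.05 over all 14870 genes tested. By this rule 2.43% of all genes tested were called higher, 4.69% were called lower and 7.12% were called in either direction. An unadjusted p of limma under 0.05 was found in 18 of the 31 genes and in 4076 of all 14870 genes tested. The fold change was above 0 in 23 of the 31 genes against 49.4% of all genes tested, and its median was 0.27 on the log2 scale against -0.00 over all genes. In 5 genes (*Dbi*, *Decr1*, *Hadh*, *Acadvl* and *Acadl*) every *Smad4*del mouse lay above every *Ctl* mouse, as in 3.50% of all genes tested, and in 0 genes every *Smad4*del mouse lay below, as in 4.59% of all genes. With DESeq2 on the recovered reads 11 of the 31 genes were called higher and 2 lower, where 6.01% and 8.68% of all genes were called. With edgeR 6 were called higher and 1 lower, where 2.10% and 4.02% of all genes were called. When mice were instead scaled to a common median, 10 of the 31 genes were called higher and 1 lower, where 4.21% and 4.30% of all genes were called, and of all calls 49.5% were higher against 34.2% with the authors' size factors.

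**Figure D1:**
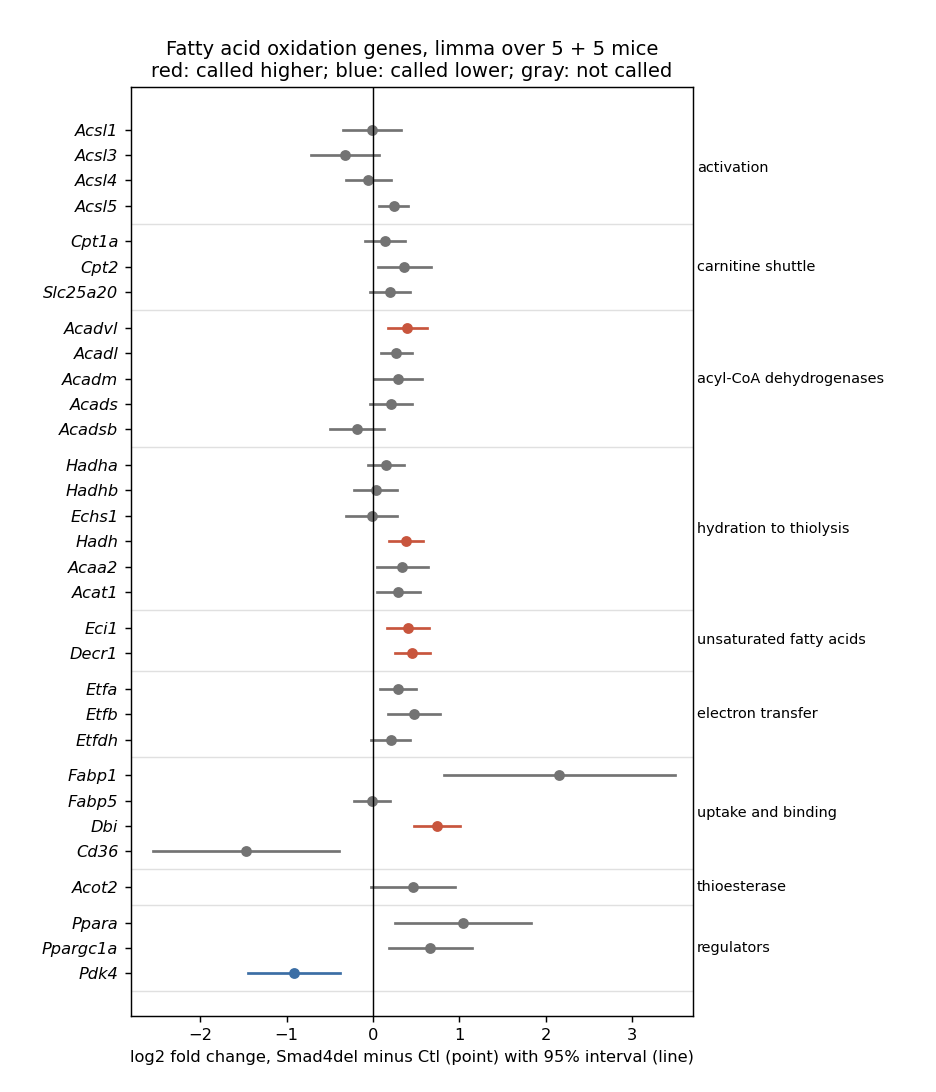
Log2 fold change of *Smad4*del minus *Ctl* for each of the 31 genes, grouped by role, with the 95% interval from limma over 5 and 5 mice. Red points are called higher (5 genes), the blue point is called lower (*Pdk4*) and gray points are not called; *Fabp1* and *Cd36* have the widest intervals.

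Among the proteins that take up and bind fatty acids and their esters, *Dbi* rose, *Fabp1* and *Cd36* differed in opposite directions without passing the test, and *Fabp5* had nearly equal means. *Dbi* encodes the acyl-CoA binding protein, which holds acyl-CoA esters in the cytosol. It lies at chr1:120113280-120121078 on the minus strand (GRCm38). Its normalized counts were 8944, 12474, 8859, 11061 and 10122 in *Ctl* mice and 16658, 20017, 19211, 14224 and 15786 in *Smad4*del mice. The lowest *Smad4*del mouse, A5447, was above the highest *Ctl* mouse, A5219. The means were 10292 ± 1521 and 17179 ± 2404 (SD, n = 5), a 1.67-fold higher level (limma, log2 fold change 0.74, SE 0.122, 95% interval 0.47 to 1.01, adjusted p = 0.00613). *Dbi* stayed called when any of the 10 mice was left out, with adjusted p between 0.00314 and 0.0209.

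*Fabp1* encodes the liver fatty acid binding protein, an abundant protein of hepatocytes and enterocytes. Its normalized counts were 202, 568, 107, 366 and 282 in *Ctl* mice and 1815, 2998, 858, 259 and 1895 in *Smad4*del mice. Of the *Smad4*del mice 4 lay above every *Ctl* mouse, and A5447 lay within the *Ctl* range. The mean was 305 ± 175 in *Ctl* and 1565 ± 1052 in *Smad4*del mice (limma, log2 fold change 2.16, SE 0.612, 95% interval 0.82 to 3.49, adjusted p = 0.0543). *Fabp1* was called without *Ctl* mouse A5219 (log2 fold change 2.43, limma adjusted p = 0.0393) and without *Smad4*del mouse A5447 (2.70, adjusted p = 0.00908), and by DESeq2 (adjusted p = 0.00390) and edgeR (adjusted p = 0.0409) on all mice. Within the *Smad4*del cohort, *Fabp1* was highest in A5217 and lowest in A5447, the mice with the highest (96276) and lowest (47754) sum of the 20 hepatocyte markers. A5218 had less *Fabp1* than A5624 but a higher sum (81071 against 65390), although a lower mean log2 level of the markers (9.57 against 10.19). In *Ctl* mice *Fabp1* was highest in A5219, and the sum of the 20 hepatocyte markers was highest in A5626. With the mean log2 level of these markers as a covariate the log2 fold change of *Fabp1* was 1.30 (limma, SE 0.365, adjusted p = 0.0623). What part hepatocyte RNA has in this difference was not tested.

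*Cd36* encodes a fatty acid translocase of the plasma membrane that is also abundant in endothelial cells and macrophages. Counts per mouse were 9468, 2281, 1912, 4466 and 1468 after normalization in *Ctl* mice and 2732, 711, 1083, 794 and 981 in *Smad4*del mice. The cohorts overlapped through A5216, the highest *Smad4*del mouse. The mean was 3919 ± 3309 in *Ctl* and 1260.2 ± 836 in *Smad4*del mice (limma, log2 fold change -1.47, SE 0.493, 95% interval -2.55 to -0.40, adjusted p = 0.0854). It was called lower without A5216 (-1.80, limma adjusted p = 0.0407) and by DESeq2 (adjusted p = 0.0460), not by edgeR (adjusted p = 0.0899). The mice with the most *Cd36* in their cohort, A5215 and A5216, also had the highest sums of the 14 macrophage markers, 318278 and 110394. A5215 had the highest sum of the 14 endothelial markers as well, 70560. The log2 fold change of *Cd36* was -0.38 with the macrophage marker level as a covariate (limma, SE 0.322, adjusted p = 0.509) and -0.018 with the endothelial marker level (limma, SE 0.967, adjusted p = 0.999). In such bulk samples fewer cells of a type and less RNA per cell cannot be told apart.

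**Figure D2:**
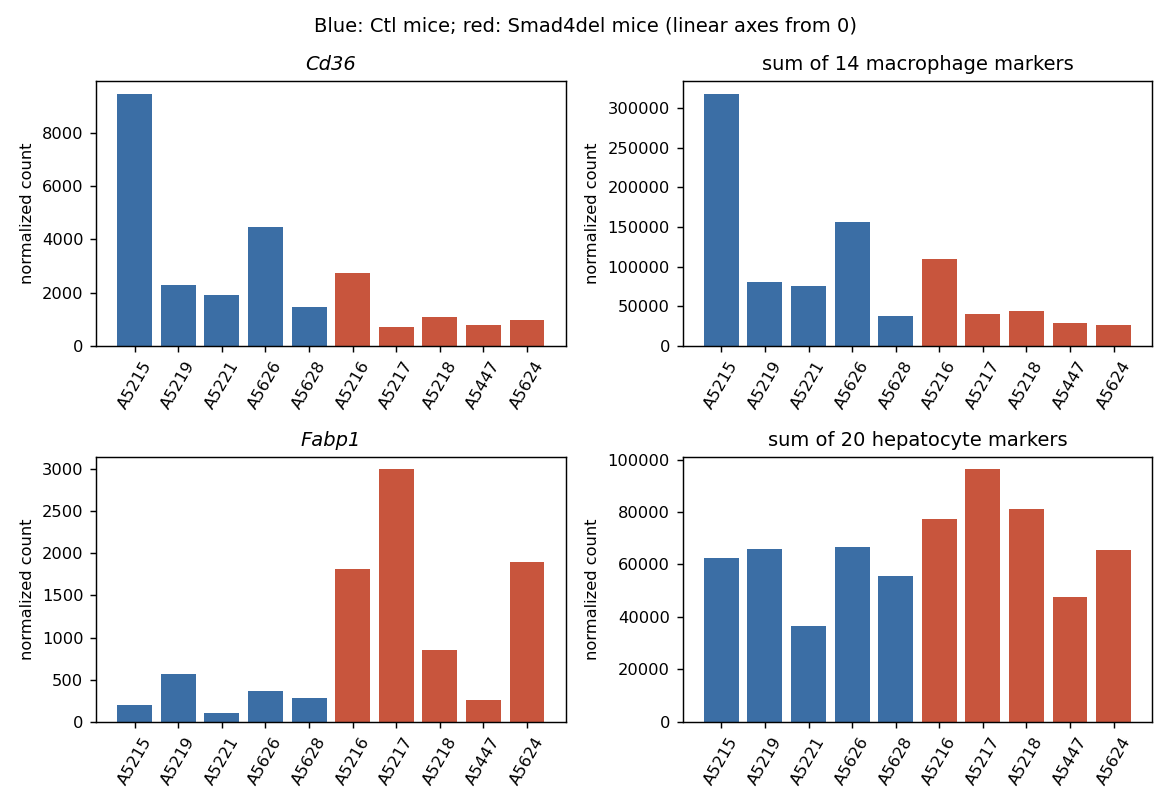
Normalized counts of *Cd36* and *Fabp1* in each mouse (left) beside the summed normalized counts of 14 macrophage and 20 hepatocyte markers (right), on linear axes from 0, with *Ctl* mice in blue and *Smad4*del mice in red. A5215 is highest in *Cd36* and in macrophage markers, and A5217 is highest in *Fabp1* and in hepatocyte markers.

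*Fabp5*, the epidermal fatty acid binding protein, spanned 3018 to 3385 normalized counts among *Ctl* and 2538 to 3694 among *Smad4*del mice, with means of 3186 ± 145 and 3181 ± 417 (SD, n = 5). Its log2 fold change was -0.01 (limma, 95% interval -0.22 to 0.20, adjusted p = 0.956).

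None of the 4 long-chain acyl-CoA synthetases, which activate fatty acids for oxidation or for lipid synthesis, was called by limma or edgeR, and DESeq2 called 1, *Acsl5*, which was also the 1 gene of the 4 with an unadjusted p of limma under 0.05. Among all 14870 genes tested, 4076 had such a p and DESeq2 called 6.01% higher. *Acsl5*, an enzyme of mitochondrial and endoplasmic reticulum membranes, had the highest mean of the 4. Its normalized counts were 4961, 4559, 4709, 5721 and 5309.9 in *Ctl* mice and 5974, 5856, 5790.0, 6412 and 5681 in *Smad4*del mice. Only *Ctl* mouse A5626 reached the range of the *Smad4*del mice, and the difference was 0.24 on the log2 scale (limma, SE 0.0785, adjusted p = 0.0822; DESeq2 adjusted p = 0.0383). *Acsl1*, the main synthetase of oxidation in many tissues, differed by -0.01 (95% interval -0.35 to 0.33), *Acsl4*, which prefers arachidonic acid, by -0.05 (-0.31 to 0.21) and *Acsl3*, a synthetase of lipid droplets, by -0.33 (-0.72 to 0.07). In *Acsl3* the *Smad4*del mice spread from 483 to 952 normalized counts around a narrow *Ctl* range of 725 to 840.0, with A5216 above and A5217, A5218 and A5624 below it.

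None of the 3 genes of the carnitine shuttle was called by limma, DESeq2 or edgeR, where 2.43%, 6.01% and 2.10% of all genes were called higher. An unadjusted p of limma under 0.05 was found in 1 of the 3, *Cpt2*, and in 4076 of all 14870 genes tested. *Cpt1a*, carnitine palmitoyltransferase 1a of the outer mitochondrial membrane and the step at which malonyl-CoA controls the pathway, was at 3778, 3249, 3682, 4033 and 4317 normalized counts in *Ctl* mice and at 4093, 3545, 3862, 4644 and 4936 in *Smad4*del mice. The cohorts overlapped over most of their range, and the log2 fold change was 0.14 (limma, SE 0.107, 95% interval -0.09 to 0.38, adjusted p = 0.415). *Cpt2*, its partner at the inner membrane, had a mean of 1152 ± 206 in *Ctl* and 1474 ± 203 in *Smad4*del mice (limma, log2 fold change 0.36, 95% interval 0.06 to 0.67, adjusted p = 0.122). *Slc25a20*, the carnitine-acylcarnitine translocase between them, had 1037 ± 40.1 and 1203 ± 167 normalized counts (0.20, 95% interval -0.03 to 0.43, limma adjusted p = 0.237), with A5447 as the only *Smad4*del mouse below the *Ctl* range.

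Inside the matrix, the 16 enzymes and electron carriers of oxidation had a median log2 fold change of 0.29, with 14 of 16 above 0. Of the 16, limma and edgeR each called 4 higher and DESeq2 called 7, where 2.43%, 2.10% and 6.01% of all genes were called higher. None of these tools called any of the 16 lower, where 4.69%, 4.02% and 8.68% of all genes were called lower. An unadjusted p of limma under 0.05 was found in 10 of the 16, against 4076 of all 14870 genes tested. Single mice moved the calls of the 16, and calls over all genes moved alongside. Limma called 9 of the 16 higher without A5447 (3.78% of all genes) and 4 without A5219 (3.08%). It called 1 or 2 without any of 7 other mice (0.976% to 2.04%) and 0 without A5217 (0.707%). Without A5217, 7 of the 16 had an unadjusted p of limma under 0.05, as had 3271 of all 14856 genes tested. Without that mouse DESeq2 called 3 of the 16 higher (2.99% of all genes) and edgeR 0 (0.599%). Under the scaling, filter and covariate alternatives, the count tests and the fits without a mouse 12 to 15 of the 16 were above 0. The differences were small: the largest of the 16 was that of *Etfb*, at 1.39-fold or 0.47 on the log2 scale. The 95% interval of each of the 4 called genes ended at 0.66 or less on the log2 scale, and that of *Etfb*, which limma did not call, at 0.77.

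The acyl-CoA dehydrogenases carry out the first step of each round and differ in the chain length they accept. *Acadvl*, for very long chains, was at 1612, 1538, 1561, 1575 and 1385 normalized counts in *Ctl* mice and at 2068, 2182, 1895, 1653 and 2384 in *Smad4*del mice. The cohorts did not overlap, although A5447 was close to the top of the *Ctl* range. The mean rose from 1534 ± 87.3 to 2037 ± 278 (SD, n = 5; limma, log2 fold change 0.40, SE 0.102, 95% interval 0.18 to 0.62, adjusted p = 0.0385). *Acadvl* lost its call when any mouse but A5447 was left out, with adjusted p of limma between 0.0517 and 0.0968. Its gene (chr11:70010183-70015411, minus strand) shares 42.9% of its exon bases with *Dvl2* on the opposite strand, and reads of these genes cannot be told apart where counting does not use strand.

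*Acadl*, for long chains, had normalized counts of 4467, 5024, 5062, 5134 and 5346 in *Ctl* mice and 6327, 6043, 5602, 5412 and 6821 in *Smad4*del mice. Every *Smad4*del mouse was above every *Ctl* mouse, with A5447 nearest, but the difference of 0.27 on the log2 scale did not pass the test (limma, SE 0.0829, 95% interval 0.09 to 0.45, adjusted p = 0.0682; without A5447 0.31, adjusted p = 0.0441). It passed with DESeq2 (adjusted p = 0.0222) and with limma after median scaling (0.33, adjusted p = 0.0430), not with edgeR (adjusted p = 0.0750). *Acadm*, for medium chains, spanned 2517 to 3420.0 among *Ctl* and 2668 to 4285 among *Smad4*del mice (limma, log2 fold change 0.29, adjusted p = 0.167; without A5447 0.39, adjusted p = 0.0458). *Acads*, for short chains, differed by 0.21 (95% interval -0.03 to 0.46). *Acadsb*, for short branched chains and thus mainly for isoleucine breakdown, differed by -0.18 (-0.49 to 0.12), the lowest fold change of the 16 matrix genes.

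In the following steps *Hadh* rose and 5 genes were not called. *Hadh* (chr3:131233419-131272101, minus strand) encodes the 3-hydroxyacyl-CoA dehydrogenase for short and medium chains. The 10 mice had normalized counts of 2741, 2935, 2596, 3029 and 2844 in *Ctl* mice and 3646, 4289.7, 3853, 3095 and 3629.7 in *Smad4*del mice. The cohorts did not overlap, and again A5447 was the *Smad4*del mouse nearest to the *Ctl* mice. The mean rose from 2829 ± 168 to 3703 ± 432 (SD, n = 5; limma, log2 fold change 0.38, SE 0.0911, 95% interval 0.18 to 0.58, adjusted p = 0.0294). The call was lost without A5215, A5221, A5628, A5217, A5218 or A5624, where adjusted p of limma lay between 0.0535 and 0.0746.

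*Acaa2*, the mitochondrial 3-ketoacyl-CoA thiolase that ends a round, was at 3665, 4096, 3621, 4088 and 3991 normalized counts in *Ctl* mice and at 5068, 6323, 4811, 3461 and 5424 in *Smad4*del mice. Of the *Smad4*del mice 4 exceeded all *Ctl* mice, while A5447 was below all of them (limma, log2 fold change 0.34, SE 0.135, adjusted p = 0.131; without A5447 0.47, adjusted p = 0.0154). *Acat1*, the acetoacetyl-CoA thiolase, had means of 1712 ± 147 and 2115 ± 342 (limma, log2 fold change 0.29, adjusted p = 0.129). The trifunctional protein, a membrane complex that does the later steps for long chains, is made of *Hadha* and *Hadhb*, which differed by 0.15 (95% interval -0.06 to 0.36) and 0.03 (-0.22 to 0.28). *Echs1*, the short-chain enoyl-CoA hydratase, differed by -0.02 (-0.32 to 0.28).

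Both auxiliary enzymes for unsaturated fatty acids were called higher, where limma called 2.43% of all genes higher. *Decr1* (chr4:15917240-15945507, minus strand) encodes the 2,4-dienoyl-CoA reductase, which is needed for polyunsaturated chains. It was at 1119.7, 1279, 1012, 1147 and 1132 normalized counts in *Ctl* mice and at 1426, 1661, 1583, 1400.1 and 1741 in *Smad4*del mice. The cohorts did not overlap, and the mean rose from 1138 ± 95.1 to 1562 ± 148 (SD, n = 5; limma, log2 fold change 0.46, SE 0.0945, 95% interval 0.25 to 0.66, adjusted p = 0.0173). Of the 10 mice only A5217 took the call with it when left out (limma, adjusted p = 0.0522).

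*Eci1* (chr17:24426641-24439348, plus strand) encodes an enoyl-CoA isomerase that moves double bonds into the position the hydratases need. Its normalized counts were 1069, 1378, 1183, 1255 and 1200.1 in *Ctl* mice and 1621, 1832, 1789, 1276 and 1587 in *Smad4*del mice. The cohorts overlapped only because A5447 was below *Ctl* mouse A5219. The mean rose from 1217 ± 113 to 1621 ± 219.7 (SD, n = 5; limma, log2 fold change 0.41, SE 0.112, 95% interval 0.16 to 0.65, adjusted p = 0.0492). The call was just under the threshold and was lost without A5215, A5221, A5626, A5628, A5216, A5217, A5218 or A5624, where adjusted p of limma lay between 0.0711 and 0.120.

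**Figure D3:**
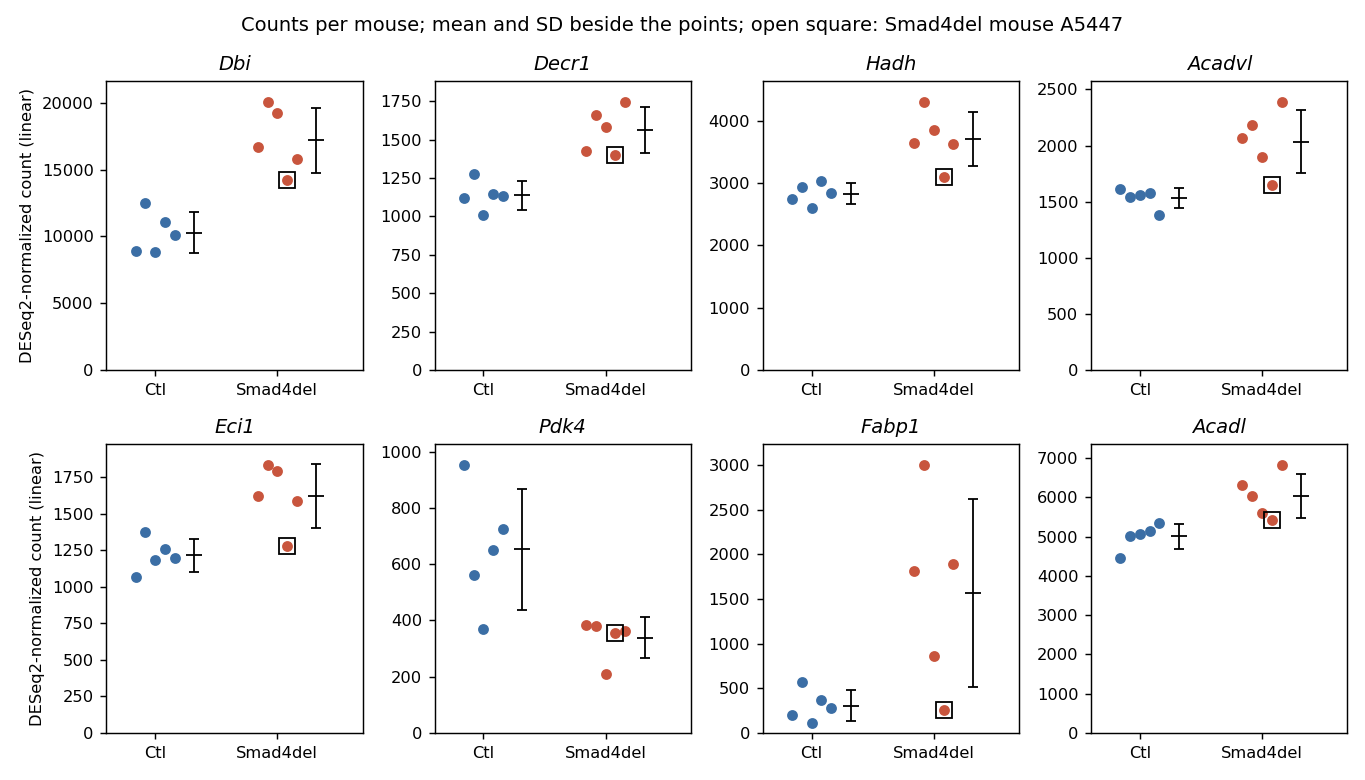
Normalized counts per mouse of 8 of the genes, on linear axes from 0, with the mean and SD of each cohort of 5 mice beside the points and an open square around *Smad4*del mouse A5447. The *Smad4*del points lie above all *Ctl* points for *Dbi*, *Decr1*, *Hadh*, *Acadvl* and *Acadl*, and A5447 is the lowest *Smad4*del mouse in each panel but that of *Pdk4*.

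The electron transfer flavoprotein takes electrons from the acyl-CoA dehydrogenases, and none of the 3 genes of this step was called by limma or edgeR, while DESeq2 called 2, *Etfa* and *Etfb*, the same 2 that had an unadjusted p of limma under 0.05. Of all 14870 genes tested DESeq2 called 6.01% higher, and 4076 had an unadjusted p of limma under 0.05. *Etfa*, its alpha subunit, was at 3672, 4401, 3957, 4278 and 4012 normalized counts in *Ctl* mice and at 5383, 5608, 5255, 4223 and 4508 in *Smad4*del mice. The overlap came from A5447, which lay below 2 *Ctl* mice (limma, log2 fold change 0.29, SE 0.0941, adjusted p = 0.0766; without A5447 0.35, adjusted p = 0.0353). *Etfb*, the beta subunit, had 315 ± 44.6 and 436 ± 48.9 normalized counts (limma, log2 fold change 0.47, SE 0.138, adjusted p = 0.0582), and was called without A5219 (adjusted p = 0.0338) or A5447 (adjusted p = 0.0476). The annotation lets 58.2% of the exon bases of *Etfb* overlap with other genes on its own strand, *Gm45233* and *Mir7051*, so that its count is uncertain. *Etfdh*, which passes the electrons on to ubiquinone, differed by 0.20 (95% interval -0.02 to 0.43).

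*Acot2*, a thioesterase that frees fatty acids from coenzyme A in the matrix, was low, at 89.2, 99.4, 75.9, 74.8 and 89.9 normalized counts in *Ctl* mice and 107, 114, 147, 86.6 and 148 in *Smad4*del mice. A5447 was again the *Smad4*del mouse within the *Ctl* range (limma, log2 fold change 0.46, SE 0.221, 95% interval -0.02 to 0.95, adjusted p = 0.198). *Acot2* has a close paralog, *Acot1*, and how reads were shared between them is not known.

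Of the regulators, *Pdk4* fell. *Pdk4* (chr6:5483351-5496309, minus strand) encodes a kinase that switches off pyruvate dehydrogenase and is a widely used target gene of PPARα and of glucocorticoids. Its normalized counts were 952, 561, 371, 651 and 726 in *Ctl* mice and 384, 379, 209.9, 354 and 363 in *Smad4*del mice. *Ctl* mouse A5221 lay among the *Smad4*del mice, and the other 4 *Ctl* mice lay above all of them. The mean fell from 652 ± 214 to 338 ± 72.6 (SD, n = 5; limma, log2 fold change -0.91, SE 0.247, 95% interval -1.45 to -0.38, adjusted p = 0.0462). The call was lost when any mouse but A5221 was left out, with adjusted p of limma between 0.0527 and 0.0963.

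*Ppara*, the nuclear receptor, was the lowest of the 31 genes, at 43.5, 27.2, 41.6, 23.0 and 79.9 normalized counts in *Ctl* mice and 115, 90.8, 82.1, 57.1 and 73.1 in *Smad4*del mice. *Ctl* mouse A5628 lay within the *Smad4*del range (limma, log2 fold change 1.04, SE 0.361, 95% interval 0.25 to 1.83, adjusted p = 0.0953; without A5628 1.29, adjusted p = 0.0490). *Ppargc1a*, the coactivator PGC-1α, had 188, 284, 254, 223 and 362 normalized counts in *Ctl* mice and 259, 443, 390.5, 477 and 517 in *Smad4*del mice. Here A5216 was the low *Smad4*del mouse (limma, log2 fold change 0.67, SE 0.221, adjusted p = 0.0843; without A5216 0.83, adjusted p = 0.0326). With all mice limma and edgeR called *Pdk4* alone of the 3 regulators, while DESeq2 also called *Ppargc1a* higher (0.67, adjusted p = 0.0351) and not *Ppara* (adjusted p = 0.0888). Limma, edgeR and DESeq2 called 4.69%, 4.02% and 8.68% of all genes lower, and DESeq2 called 6.01% higher.

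The 5 *Smad4*del mice were not alike. A5447 was the lowest mouse of its cohort in 22 of the 31 genes and in 15 of the 16 matrix genes. How often it was lowest over all genes was not counted. Relative to the *Ctl* mean, the median log2 deviation of the 16 matrix genes was 0.37, 0.44, 0.28, 0.03 and 0.37 in the *Smad4*del mice, and 9 of the 16 lay above the *Ctl* mean in A5447 against 14 to 16 in the other 4. In the *Ctl* mice the same median lay between -0.08 and 0.07. A5447 had 19710560 reads on genes, the most of its cohort, the lowest hepatocyte marker sum of its cohort (47754) and a *Smad4* level of 1011 within its cohort's range of 687 to 1031. Its mean log2 level was the highest of all mice for cholangiocyte markers (13.73) and the lowest for macrophage markers (6.97). By sums, A5218 had more cholangiocyte markers (664958 against 619144) and A5624 fewer macrophage markers (26050 against 28979). What part these levels have in its low values was not tested. Without A5447, limma called 11 of the 31 genes higher and 0 lower, where 3.78% and 5.65% of all genes were called.

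**Figure D4:**
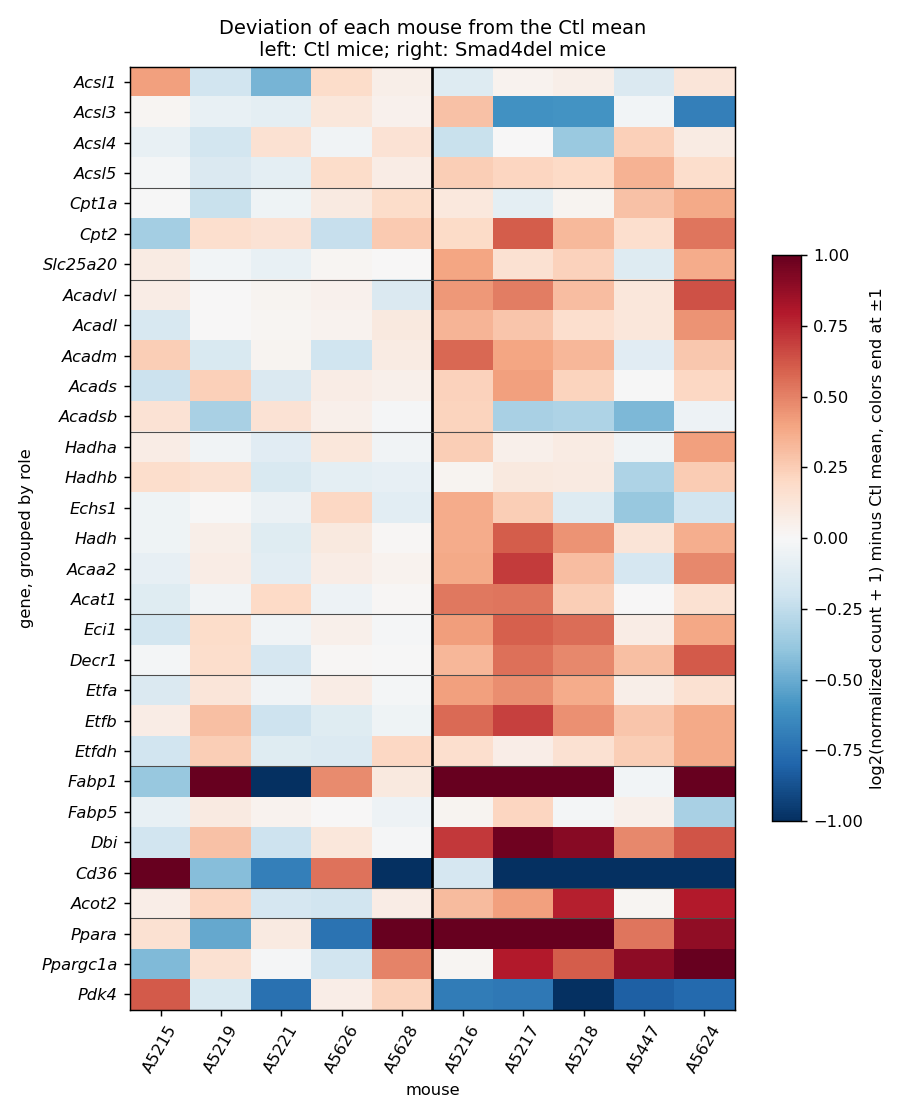
Difference of each mouse from the *Ctl* mean on the log2(normalized count + 1) scale for the 31 genes, with *Ctl* mice left and *Smad4*del mice right of the line and colors that end at ±1. The rows from *Acadvl* to *Etfdh* are mostly red in A5216, A5217, A5218 and A5624 and pale or blue in A5447, and *Pdk4* is blue in all 5 *Smad4*del mice.

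The labels give no batch, and the mouse numbers fall into an earlier range (A5215 to A5221, 3 mice per cohort) and a later range (A5447 to A5628, 2 per cohort). Within the earlier range 15 of the 16 matrix genes were higher in *Smad4*del with a median difference of 0.39 on the log2 scale, and within the later range 14 of 16 with a median of 0.14. *Dbi* differed by 0.90 and 0.50, *Decr1* by 0.46 and 0.45, *Hadh* by 0.51 and 0.19, *Acadvl* by 0.38 and 0.43, *Eci1* by 0.54 and 0.21 and *Pdk4* by -0.90 and -0.94 in the earlier and the later range. All 6 called genes thus had the same direction in both ranges, within which no test was run.

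Marker levels of other cells differed between mice and were also entered as covariates. With the hepatocyte marker level as a covariate, *Dbi*, *Decr1* and *Pdk4* were called and the others were not: *Hadh* was at 0.30 on the log2 scale against 0.38 without the covariate, *Acadvl* at 0.31 against 0.40 and *Eci1* at 0.34 against 0.41 (limma, adjusted p = 0.0713, 0.0927 and 0.117). With the macrophage marker level as a covariate only *Dbi* was called (limma, 0.78, adjusted p = 0.0214), while the fold changes of *Acadvl* (0.47), *Hadh* (0.43), *Eci1* (0.45) and *Decr1* (0.43) were close to or above those without it (limma, adjusted p = 0.0603, 0.0576, 0.0945 and 0.0715) and that of *Pdk4* was -0.82 (limma, adjusted p = 0.141). The median of the 16 matrix genes was 0.22 with the hepatocyte and 0.38 with the macrophage covariate, against 0.29. With the endothelial marker level as a covariate limma called 0 of the 31 genes and 0 of all 14870 genes, while 2 of the 31 and 731 of all genes had an unadjusted p under 0.05. *Dbi* was then at 0.20 (SE 0.187) against 0.74, *Hadh* at 0.18 (SE 0.181) against 0.38 and *Acadvl* at 0.53 (SE 0.214) against 0.40, and the matrix median was 0.15. The endothelial marker sums of the cohorts did not overlap, so that cohort and endothelial markers cannot be told apart. The same holds for the sums of the stellate cell and fibroblast markers (17888 to 47067 in *Ctl*, 8581 to 15463 in *Smad4*del). Their level was not entered as a covariate.

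Per kilobase of exon, *Dbi* was the most abundant of the 31 genes in *Ctl* mice, at 7238 normalized counts per kb, ahead of *Acaa2* (2567), *Acadl* (2497) and *Etfa* (2215). The ranges of *Acaa2* (2388 to 2702) and *Acadl* (2228 to 2667) overlapped, as did those of *Acadl* and *Etfa* (2001 to 2398), whereas the range of *Dbi* (6229.9 to 8772) lay above all others. *Cd36* spread from 409 to 2637 and *Fabp1* from 194 to 1027 per kb, wider than any enzyme. The transcripts at the bottom were *Acsl1* (63.8), *Ppargc1a* (39.8), *Acot2* (39.1) and *Ppara* (11.2 per kb). All of these levels depend on the gene lengths of GENCODE M21, a later annotation than the one used for counting.

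**Figure D5:**
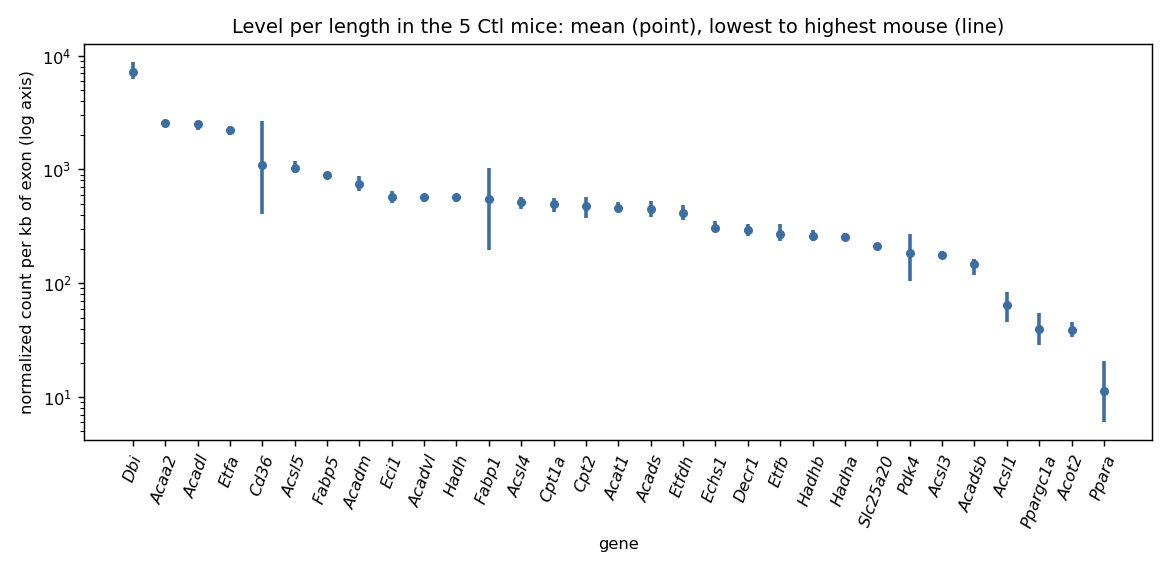
Normalized counts per kb of annotated exon in the 5 *Ctl* mice for the 31 genes, in falling order on a log axis, with the mean as a point and the lowest to highest mouse as a line. *Dbi* stands above the other genes, *Cd36* and *Fabp1* have long lines, and *Ppara* is lowest.

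Promoter sequences (250 bases before to 50 after the start) of 27 of the 31 genes, not of *Acaa2*, *Acat1*, *Decr1* and *Fabp5*, were found in RefSeq on GRCm38.p6 and searched on both strands for the letters of known motifs. The hexamer AGGTCA, to which nuclear receptors such as PPARα bind, was present in 6 genes (*Acadm*, *Acadvl*, *Cd36*, *Cpt1a*, *Echs1* and *Fabp1*), against 16.3% of all 32851 promoters. A direct repeat of this hexamer with 1 base between the copies, which PPARα binds and each of which is also a match of the hexamer, was in 0 of the 27 genes and 0.0396% of all promoters. The SMAD palindrome GTCTAGAC was in 0 of the 27 and 0.213% of all. The GC box GGGCGG was in 18 genes (35.7% of all promoters), the CCAAT box CCAAT in 12 (37.4%) and the TATA box TATAAA in 1, *Fabp1* (13.6%).

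The stretches shown are 120 bases of the promoters of 4 called genes and of *Fabp1*, the gene with the largest fold change, written 5′ to 3′ on the strand of the gene, so that the start regions of genes which rose (*Hadh*, *Acadvl*, *Eci1*), fell (*Pdk4*) or only differed in mean (*Fabp1*) can be compared. Capitals mark a GC box in *Hadh* and *Eci1*, an AGGTCA hexamer in *Acadvl* and *Fabp1* and a CCAAT box in *Pdk4*, in either orientation. Annotated exon bases next to the start, 42 in *Eci1*, 31 in *Pdk4* and 52 in *Fabp1*, were left out, and too few bases of *Dbi* were free of them to show.
Hadh (chr3:131272102-131272221, minus strand): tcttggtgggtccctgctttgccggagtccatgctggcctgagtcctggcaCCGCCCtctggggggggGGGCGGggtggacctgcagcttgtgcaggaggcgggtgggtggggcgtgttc
Acadvl (chr11:70015429-70015548, minus strand): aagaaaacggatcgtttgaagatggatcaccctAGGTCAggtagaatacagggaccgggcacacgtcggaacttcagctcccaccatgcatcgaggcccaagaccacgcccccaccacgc
Eci1 (chr17:24426521-24426640, plus strand): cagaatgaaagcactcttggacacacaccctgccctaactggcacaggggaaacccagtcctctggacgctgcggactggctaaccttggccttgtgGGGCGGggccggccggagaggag
Pdk4 (chr6:5496310-5496429, minus strand): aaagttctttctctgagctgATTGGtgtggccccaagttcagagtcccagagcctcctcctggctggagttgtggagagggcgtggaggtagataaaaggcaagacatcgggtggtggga
Fabp1 (chr6:71199707-71199826, plus strand): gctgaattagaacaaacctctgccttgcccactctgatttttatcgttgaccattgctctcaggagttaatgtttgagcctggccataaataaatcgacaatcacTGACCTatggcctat
*Hadh* holds the GC box in both orientations within 69 bases of its start. The hexamer of *Acadvl* begins 87 bases before the start, and *Fabp1* has 2 hexamers, at 67 bases, shown in capitals, and at 9 bases before the start, outside the stretch shown. These matches are descriptions of letters and no measurement of binding.

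Of 72 further genes of fatty acid metabolism 65 were tested. By limma 3 were called higher (4.62%) and 2 lower (3.08%), where 2.43% and 4.69% of all genes were called. The fold change was above 0 in 42 of the 65 against 49.4% of all genes, with a median of 0.11 on the log2 scale. *Crot*, the peroxisomal carnitine octanoyltransferase, rose from 5241 ± 1259 to 9493 ± 1564 normalized counts, and its *Smad4*del mice, at 7205 or more, all exceeded the *Ctl* maximum of 6879.5 (limma, log2 fold change 0.87, SE 0.164, adjusted p = 0.0107). *Vnn1*, a pantetheinase of coenzyme A turnover, rose from 999.5 ± 223 to 2014 ± 339 without overlap (limma, 1.03, SE 0.169, adjusted p = 0.00616). *Acsm5*, a medium-chain acyl-CoA synthetase, rose from 36.4 ± 18.2 to 108 ± 42.3 with overlap through A5447 (limma, 1.60, SE 0.427, adjusted p = 0.0450). None of these 3 carries out a step of the mitochondrial spiral itself.

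*Fabp4*, the adipocyte fatty acid binding protein that is also typical of endothelial cells, fell from 1993 ± 517 to 616 ± 101 without overlap (limma, log2 fold change -1.66, SE 0.193, adjusted p = 0.000950). *Mgll*, monoglyceride lipase, fell from 748 ± 189 to 305 ± 93.4 without overlap (limma, -1.30, SE 0.227, adjusted p = 0.00749). The summed endothelial markers fell alongside, and their part in the change of *Fabp4* and *Mgll* was not tested. All 7 other acyl-CoA dehydrogenase genes had a fold change above 0, as had 49.4% of all genes tested. Of the 7, limma and edgeR called 0 and DESeq2 called 1 higher, where DESeq2 called 6.01% of all genes higher. An unadjusted p of limma under 0.05 was found in 1 of the 7 and in 4076 of all 14870 genes tested.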

How the data were processed

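Reactive cholangiocytes of 5 *Ctl* and 5 *Smad4*del mice were analysed as 1 sample per mouse, with cohorts taken from the sample titles. The deposited signal values are gene counts that the authors made by trimming reads with Trimmomatic 0.36, aligning them to GRCm38.p5, counting with featureCounts and dividing by 1 DESeq2 1.14.1 size factor per mouse in R 3.3.2. The submitters' processing notes also name mm9. The sources used here leave unsaid whether these counts include multi-mapping reads.

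In each mouse 100% of the values were whole multiples of the smallest (relative tolerance 1e-06), which gave back reads for the count tests, although in A5217 1 read is worth 0.998. Over 45 pairs of mice the chi-square of the reads was at least 25.7 times its degrees of freedom, above sampling noise for every pair. The table lists 49568 genes, 22557 of them at 0 throughout. Those with a mean of at least 10 (14870) were tested with limma 3.58.1 (R 4.3.3) on log2(value + 1) with a trended variance prior and Benjamini-Hochberg adjustment at 0.05. Alternatives were DESeq2 1.42.0 and edgeR 4.0.16 for the recovered reads, other pseudocounts, filters, scalings and covariates, and leaving out each mouse. The fits were tested on simulated data.

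The genes and lists were chosen with earlier results of these data known. Full values are given for called genes, for the highest mean of each role and for cohorts without overlap; *Fabp1*, *Cd36*, *Ppara* and *Ppargc1a* were added after their values were seen. Of 72 further genes the called ones are named. Gene positions come from GENCODE M21 (GRCm38) and promoters from RefSeq.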

Additional observations from a re-analysis of the deposited data

Results flagged for a closer look

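A gap test of the highest and lowest mouse in each cohort (Dixon, 95% level) was applied to 62 groups of 5 mice, 2 for each of the 31 genes, and marked 3, where chance marks about 1 in 20. *Echs1* was high in *Ctl* mouse A5626, at 2908 normalized counts. *Cd36* was high in *Smad4*del mouse A5216, at 2732, the mouse with the highest macrophage marker sum of its cohort. *Pdk4* was low in *Smad4*del mouse A5218, at 209.9.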

How the results depend on the processing

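The counts of calls depended on single mice and on the test more than the directions did. Among the 31 genes, limma called 2 higher and 0 lower with no filter on low values (0.774% and 1.90% of all genes), 10 higher with median scaling (4.21% of all genes), 2 higher with the hepatocyte covariate (1.47%), 1 higher and 0 lower with the macrophage covariate (1.02% and 2.68%, 551 of all genes called), and 0 higher and 0 lower with the endothelial covariate, which left 0 of all genes and 0 higher and 0 lower of the 72 further genes. DESeq2 called 11 higher and 2 lower, 11 further genes higher, and 2183 of all genes against 1059 by limma. The median of the 16 matrix genes, 0.29, was 0.22 with the hepatocyte, 0.38 with the macrophage and 0.15 with the endothelial covariate. Quantile scaling called 5 further genes higher (3.85% of all genes) and the hepatocyte covariate 4 further genes lower (3.95% of all genes). Leaving out 1 mouse gave 434 (without A5217) to 1404 (without A5447) calls over all genes, 1 (without A5217) to 11 (without A5447) of the 31 higher and 0 to 1 lower, and 2 to 9 (without A5447) of the 72 further genes higher, with 8 without A5219, and 2 to 3 lower. In an alternative chosen after seeing the data, edgeR without A5217 called 1 of the 31 higher and 0 lower, and 354 of all genes. DESeq2 without A5217 called 5 of the 31 higher and 1 lower, where 2.99% and 6.31% of all genes were called. Of 744 values of single genes under an alternative, 624 kept direction and call, 55 lost and 28 gained a call, and 37 changed direction. No paired analysis was possible because the sample labels used here give no litter. By the study's methods controls were littermates where possible.

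The reversals were of values near 0 or came with a covariate, and their cause was not tested. *Acsl1* (-0.01) became 0.053 with median scaling, 0.038 with quantile scaling, 0.37 with the endothelial and 0.080 with the macrophage covariate, and -0.13 to 0.091 when a mouse was left out. *Acsl4* (-0.05) became 0.012 with median and 0.0050 with quantile scaling, 0.012 with the hepatocyte and 0.26 with the endothelial covariate, and -0.13 to 0.026. *Echs1* (-0.02) became 0.050 with median and 0.034 with quantile scaling, 0.0082 by DESeq2, 0.016 by edgeR, 0.21 with the macrophage covariate, and -0.11 to 0.075. *Fabp5* (-0.01) became 0.054 and 0.031 with the scalings, 0.0064 by edgeR, 0.029 with the macrophage covariate, and -0.068 to 0.067. *Hadhb* (0.03) became -0.066 with the hepatocyte covariate and -0.023 to 0.12. With the endothelial covariate *Acads* was at -0.17, *Acadsb* at 0.20, *Eci1* at -0.026, *Etfa* at -0.064 and *Pdk4* at 0.011, while cohort and covariate cannot be told apart.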
